A study of Mus musculus with 12 samples.

Results

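The genes that make cholesterol and fatty acids were followed in cultured mouse oligodendrocyte precursor cells (OPCs), which divide and mature into the cells that make myelin. The set is a fixed list of 34 genes among the 55536 genes of the tables: 18 enzymes of the sterol pathway, 7 enzymes of fatty acid synthesis and 9 regulators and transport proteins. A gene's count is the sum over its transcripts. OPCs were taken from pooled brains of pups aged P4 to P6, either by sorting for Sox10-GFP, a reporter of the oligodendrocyte lineage, or with beads against CD140a, the PDGF receptor α. All cultures, the controls included, were grown with PDGFaa and bFGF, factors that keep OPCs dividing. The reporter marks any cell in which Sox10-driven Cre has been active, so it is not limited to precursors. Compared were untreated cells (Ctr), cells given 1 µM of the synthetic glucocorticoid dexamethasone for 48 h (Dexa), and cells given 100 ng/ml of the cytokine IFN-γ for 48 h. There were 4 replicates of each, from different litters, and libraries with the same replicate number were paired.

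Cholesterol is built from acetyl-CoA through mevalonate, squalene and lanosterol, while fatty acids are built from acetyl-CoA by carboxylation, chain synthesis, elongation and desaturation. Most of the enzymes are transcribed under the control of the SREBP factors. SREBPs are held in the endoplasmic reticulum by the sensor SCAP and the INSIG proteins while sterols are plentiful. Myelin is rich in cholesterol and long-chain lipids, and oligodendrocyte lineage cells make much of their own.

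Dexa replicate 3 was left out of the main comparisons because its table listed only 33.73% of the transcripts. Reads in genes ranged from 19209059 to 52074655 in the other 11 libraries. Both treatments left their mark on known response genes: Irf1, an interferon-induced transcription factor, was at 10.9 ± 0.99 CPM in Ctr (SD, n = 4) and at 704 ± 26.1 CPM with IFN-γ (n = 4), and Fkbp5, a glucocorticoid receptor target, at 43.3 ± 7.17 CPM in Ctr and 120 ± 17.7 CPM in Dexa (n = 3). CPM are counts scaled to the library size after TMM normalization. The 8 OPC markers were present in every library. Their summed level was 5374 to 12670 CPM in Ctr, 5996 to 13931 CPM in Dexa and 3739 to 8705 CPM with IFN-γ. The 10 oligodendrocyte markers summed to 338 to 2224 CPM in Ctr, 376 to 2226 CPM in Dexa and 234 to 805 CPM with IFN-γ. All 7 microglia and macrophage markers stayed under 1 CPM in every library. The 7 astrocyte markers summed to 513 to 1509 CPM in Ctr, 1098 to 1943 CPM in Dexa and 1038 to 1569 CPM with IFN-γ, so RNA of astrocyte genes was present in all libraries. Neuron markers summed to 14.7 to 25.9 CPM and fibroblast and vascular markers to 2.84 to 13.2 CPM over the 11 libraries.

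In Ctr the lipid synthesis genes spanned a wide range of levels per length. In TPM, a scale corrected for transcript length, Scd2, the main stearoyl-CoA desaturase of brain, had the highest median at 379 (407.8, 393, 285 and 365 in replicates 1 to 4). Hmgcs1, which makes HMG-CoA for the mevalonate pathway, followed at a median of 230.3 TPM. Fdps, which makes farnesyl diphosphate, was next at 164 TPM, and the fatty acid synthase gene Fasn stood at 109 TPM. These 4 genes come from both pathways. At the other end were Hsd17b7, a C4-demethylation enzyme, at 10.6 TPM, the sterol isomerase gene Ebp at 8.28 TPM and Insig2 at 5.83 TPM. Ch25h, which makes the signalling oxysterol 25-hydroxycholesterol, was last at 0.02 TPM. In all, 29 of 34 genes were above 10 TPM in each Ctr library. Ordered by the Ctr median, 11 of the 33 pairs of neighbours kept their order in all 4 Ctr libraries, among them Scd2 over Hmgcs1, Hmgcs1 over Fdps, and Fdps over Fasn. The remaining neighbours, for example Fasn and Acly, changed places in at least one library, so their order is not resolved.

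**Figure D1:**
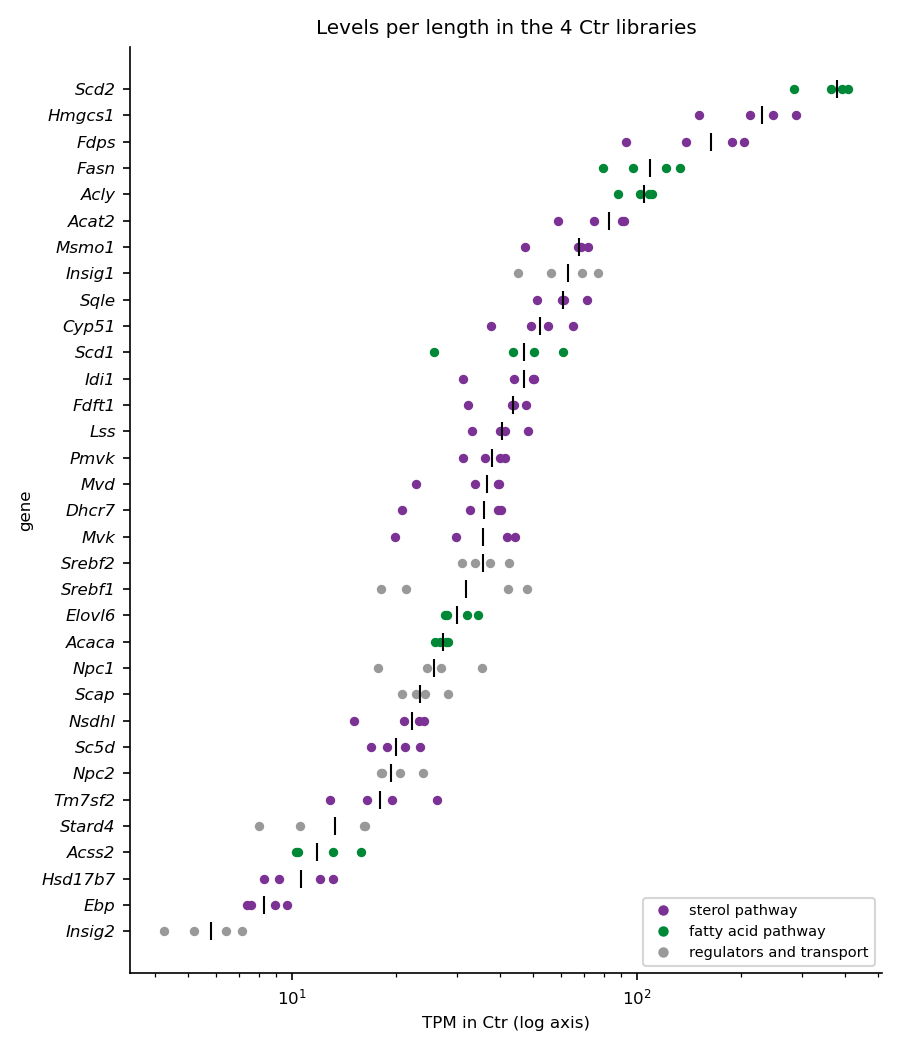
TPM of 33 lipid synthesis genes in the 4 Ctr libraries on a log axis, one point per library, with the median as a vertical tick and colour by gene group. Ch25h, with a median of 0.02 TPM, lies off the axis and is not drawn. Scd2, Hmgcs1 and Fdps lie at the top, and most genes in the middle of the order overlap with their neighbours.

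Promoter sequence was looked up for the genes because the sterol enzymes varied together across libraries. Sequences are printed for 4 genes: Ebp and Npc2, which rose with IFN-γ, Ch25h, which had the largest ratio, and Hmgcs1. Hmgcs1 is an abundant SREBP target that did not pass the test. Acss2, which also rose with IFN-γ, was searched but is not printed. RefSeq promoters on build GRCm38.p6, from 250 bases before to 50 bases after the start site, were at hand for 27 of the 34 genes. None was at hand for Fdps, Fdft1, Sqle, Scd1, Scd2, Stard4 and Npc1. Npc1, which fell with IFN-γ, was therefore not searched. Ebp lies on the minus strand at chrX:8193463-8193762, Npc2 on the minus strand at chr12:84773063-84773362, Ch25h on the minus strand at chr19:34475099-34475398 and Hmgcs1 on the plus strand at chr13:119690101-119690400. Each is written 5′ to 3′ along the gene. Capitals mark a GAS match (TTCNNNGAA, the interferon-γ activation site) and an ISRE core match (GAAANNGAA, bound by interferon regulatory factors) in Ebp, CCAAT boxes in Npc2 and the sterol regulatory element (TCACNCCAC, bound by SREBPs) in Hmgcs1. No capitals are set in Ch25h.
Ebp: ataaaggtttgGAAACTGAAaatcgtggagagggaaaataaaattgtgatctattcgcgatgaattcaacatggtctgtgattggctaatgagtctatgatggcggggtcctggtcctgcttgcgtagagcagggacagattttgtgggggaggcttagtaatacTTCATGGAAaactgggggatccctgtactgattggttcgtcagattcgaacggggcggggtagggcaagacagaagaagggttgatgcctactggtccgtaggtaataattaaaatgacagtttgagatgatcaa
Npc2: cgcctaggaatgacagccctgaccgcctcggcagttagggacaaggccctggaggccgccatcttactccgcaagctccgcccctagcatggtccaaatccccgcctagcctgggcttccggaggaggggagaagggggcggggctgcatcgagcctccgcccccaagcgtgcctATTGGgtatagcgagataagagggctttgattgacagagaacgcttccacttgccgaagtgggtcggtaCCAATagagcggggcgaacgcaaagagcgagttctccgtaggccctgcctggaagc
Ch25h: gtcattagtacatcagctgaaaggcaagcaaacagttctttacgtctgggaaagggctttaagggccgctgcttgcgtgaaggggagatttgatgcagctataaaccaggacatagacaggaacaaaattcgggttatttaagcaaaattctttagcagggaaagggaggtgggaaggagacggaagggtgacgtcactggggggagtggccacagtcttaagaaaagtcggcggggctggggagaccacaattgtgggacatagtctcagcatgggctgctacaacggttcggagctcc
Hmgcs1: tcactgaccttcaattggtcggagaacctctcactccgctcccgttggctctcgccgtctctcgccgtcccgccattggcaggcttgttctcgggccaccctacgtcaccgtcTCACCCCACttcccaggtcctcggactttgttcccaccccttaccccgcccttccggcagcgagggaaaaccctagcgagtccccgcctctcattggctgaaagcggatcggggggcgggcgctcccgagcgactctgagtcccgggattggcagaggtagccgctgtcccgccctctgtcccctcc

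Ebp was the single member among the 27 with a GAS match, TTCATGGAA at position -85 from the start site, and also the single one with an ISRE core match, GAAACTGAA at position -239. A GAS match was held by 9.55% and an ISRE core match by 9.76% of the 27025 genes with a promoter. Hmgcs1 alone of the 27 had an exact match to the letters of the sterol regulatory element, at position -137, against 1.44% of all genes. Only exact matches in this window were searched, so the other genes are not shown to lack the element. CCAAT boxes, bound by the NF-Y partner of SREBPs, were found in 22 of the 27 genes, 14 of 15 sterol enzymes among them, against 41.1% of all genes. The GC box GGGCGG, bound by SP1, was also found in 22 of 27, against 38.2%. The E-box CACGTG was found in 5 of 27, against 8.09%. The core letters of the glucocorticoid receptor element, ACANNNTGT, was found in Acat2 and Acss2, against 7.9% of all genes. Both strands were searched, and a match is a description of the sequence only. Ch25h had none of these 7 motifs in its window.

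Levels of these genes differed more between replicates than between treatments. Hmgcs1 measured 1527, 1158, 713 and 1096 CPM in Ctr replicates 1 to 4, 1227, 1064 and 1114 CPM in Dexa replicates 1, 2 and 4, and 1403, 1225, 860.2 and 927 CPM with IFN-γ. Sqle, the squalene epoxidase gene, measured 274, 282, 206 and 268 CPM in Ctr, 249, 257 and 254 CPM in Dexa, and 281, 273, 203 and 211 CPM with IFN-γ. In both genes Ctr replicate 3 was the lowest control, and IFN-γ replicates 3 and 4 were lower than replicates 1 and 2. Fasn went the same way, with 1501, 1449, 858 and 1105 CPM in Ctr, 1298, 1233 and 1056 CPM in Dexa, and 1577, 1344, 1118 and 1018 CPM with IFN-γ. Ctr replicate 3 was the lowest control for 18 of 18 sterol enzymes, 7 of 7 fatty acid enzymes and 6 of 8 tested regulators. Between Ctr replicates 3 and 1 the median log2 difference was -0.75 over the sterol enzymes, -0.71 over the fatty acid enzymes and -0.51 over the regulators, beside 0.04 over all tested genes. Tested in the same fit, 25 of 33 lipid synthesis genes differed between replicate numbers at an adjusted p under 0.05, where 45.8% of all 18386 tested genes did. Without Ctr replicate 3 that count was 18, and without IFN-γ replicate 4 it was 32.

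The replicate pattern was shared within the pathway. After each group's mean was taken off, the median correlation between pairs of sterol enzymes over the 11 libraries was 0.90 (153 pairs), that among fatty acid enzymes 0.72 and that among regulators 0.71. These points share libraries and scaling, so the values are a description. In Ctr and IFN-γ together, the replicate number held a median of 81.2% of a sterol enzyme's variance and IFN-γ held 2.83%, while over all genes the medians were 57.3% and 17.3%. The replicate number has more levels than IFN-γ and so takes up more variance by itself. Each share is therefore to be read against its median over all genes. Npc1, the lysosomal cholesterol exporter, ran the other way. Its median correlation with the sterol enzymes was -0.78. Other values moved with the replicates too: the 8 cell cycle genes summed to 3192, 2540, 1527 and 1188 CPM in Ctr replicates 1 to 4, and the OPC markers to 5374, 9221, 12670 and 12215 CPM. In the same libraries the 10 oligodendrocyte markers summed to 338, 877, 1584 and 2224 CPM. The 7 astrocyte markers summed to 1509, 1237, 513 and 804 CPM in Ctr replicates 1 to 4, where the sterol enzymes summed to 4431, 3847, 2413 and 3632 CPM, so both had replicate 1 highest and replicate 3 lowest. The part of these genes in the replicate pattern was not tested. In bulk RNA, fewer cells of a type and less RNA per cell cannot be told apart.

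**Figure D2:**
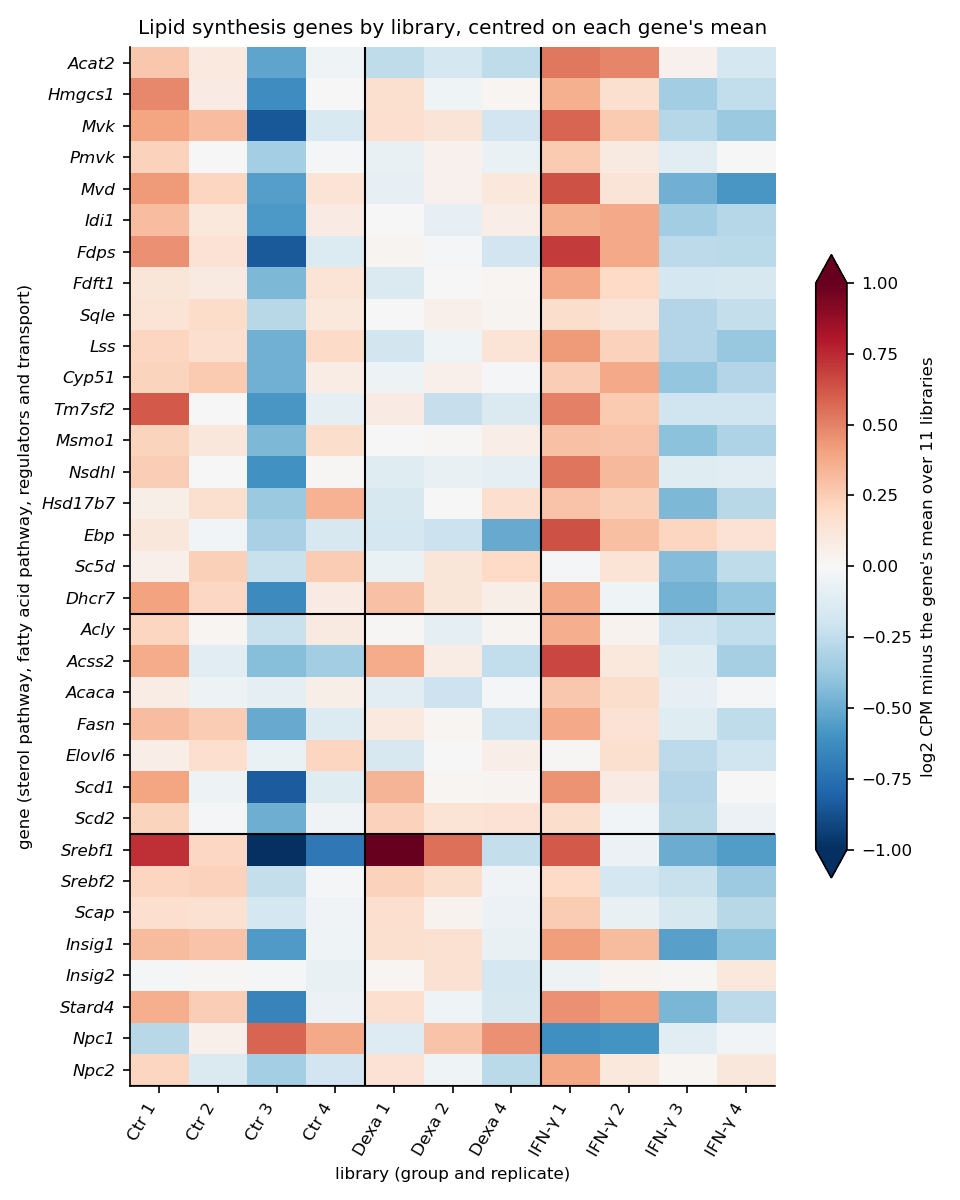
Log2 CPM of 33 lipid synthesis genes in 11 libraries, centred on each gene's mean, with red above and blue below it and the colours ending at 1 and -1. Ctr replicate 3 is blue for nearly all sterol and fatty acid enzymes, IFN-γ replicates 1 and 2 are mostly red and replicates 3 and 4 mostly blue, and Npc1 shows the opposite order.

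IFN-γ changed 4 of the 33 tested genes, by at most 0.51 on the log2 scale. Ch25h, which was too scarce for this test, is described apart. With the replicate number in the edgeR model, 4 of the 33 tested genes were called at an adjusted p under 0.05 (Benjamini-Hochberg over all tested genes), where 30.8% of all tested genes were called. Ebp, Acss2 and Npc2 rose, which is 3 of 33 beside 14.8% of all genes, and Npc1 fell, which is 1 of 33 beside 15.9%. The median log2 difference was 0.03 over the 18 sterol enzymes, 0.06 over the 7 fatty acid enzymes, 0.00 over the 8 regulators tested and -0.03 over all genes. Of the sterol enzymes 9 had a positive and 9 a negative estimate. Among the 29 genes not called, the 95% interval of the log2 difference lay within 0.5 either way for 26, and for all 29 it lay between -0.61 and 0.56.

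Ebp, which shifts a double bond late in sterol synthesis, measured 21.2, 19.2, 15.6 and 17.5 CPM in Ctr replicates 1 to 4 and 30.3, 24.1, 22.7 and 21.6 CPM with IFN-γ. All IFN-γ libraries were above all Ctr libraries, the sole case among the 33 genes, while 14.5% of all tested genes had groups that did not overlap. The log2 difference was 0.42 ± 0.07 (SE, edgeR adjusted p = 0.00086), a change of 34.1%. Ebp is among the less abundant members, and without the replicate block the adjusted p was 0.095. It remained called when any one library was left out.

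Npc2, the soluble lysosomal protein that hands cholesterol to NPC1, rose by 0.27 ± 0.05 on the log2 scale (edgeR adjusted p = 0.0025). Its values were 119, 92.7, 81.03 and 89.96 CPM in Ctr and 134, 110.2, 104 and 111 CPM with IFN-γ. The groups overlapped, since Ctr replicate 1 was above 3 of the IFN-γ libraries, but IFN-γ was higher in 4 of 4 replicates. Npc1, its membrane partner, moved in the opposite direction, with 136, 170.2, 246 and 214 CPM in Ctr and 108, 109, 153 and 162 CPM with IFN-γ. It was lower in 4 of 4 replicates and fell by 0.51 ± 0.07 on the log2 scale (edgeR adjusted p = 0.00020). The 2 partners that move cholesterol out of lysosomes thus carried 2 of the 4 calls, with opposite signs. Without the block the adjusted p was 0.32 for Npc2 and 0.19 for Npc1. Leaving out any one library ended neither call.

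Acss2, which makes acetyl-CoA from acetate, measured 70.9, 51.02, 41.0 and 43.2 CPM in Ctr and 87.2, 59.2, 50.5 and 43.7 CPM with IFN-γ. It was higher in 4 of 4 replicates, by 0.02 in replicate 4 and by 0.21 to 0.30 on the log2 scale in the others. The fitted difference was 0.21 ± 0.07 (edgeR adjusted p = 0.030). This call was lost without the block (adjusted p = 0.68), with an offset for effective length (0.11), with upper-quartile scaling (0.052), and without any 1 of Ctr replicates 1, 2 or 3 or IFN-γ replicates 1 or 3 (0.063 to 0.083). It is the least stable of the 4.

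In all 4 replicates 5 genes were higher with IFN-γ (Pmvk, Ebp, Acss2, Scd1 and Npc2) and 3 were lower (Sc5d, Elovl6 and Npc1), beside 20.1% and 23.6% of all genes. Several neighbours of the threshold had the same sign in most replicates. Scd1, a desaturase, was higher with IFN-γ in 4 of 4 replicates, at 428, 314, 184 and 300.4 CPM in Ctr and 444, 345, 266 and 324 CPM with IFN-γ. Its log2 difference was 0.21 ± 0.08 with an edgeR adjusted p of 0.056, and it was called in 7 of 19 alternatives. Srebf2, the SREBP that drives sterol synthesis, measured 228, 230.1, 167 and 195 CPM in Ctr and 225, 174, 168 and 153 CPM with IFN-γ, a log2 difference of -0.19 ± 0.07 (edgeR adjusted p = 0.069). Srebf1, the SREBP that drives fatty acid synthesis, spread more than any other member between controls, 3.69-fold from 239 in replicate 1 to 64.7 CPM in replicate 3. With IFN-γ it was at 220.2, 139, 102 and 97.8 CPM, and its log2 difference was 0.11 ± 0.13 (edgeR adjusted p = 0.60). Insig1, a retention protein and itself an SREBP target, measured 269, 263, 146 and 209 CPM in Ctr and 288, 269, 148 and 163 CPM with IFN-γ (log2 difference -0.05 ± 0.08, adjusted p = 0.72). Scd2 measured 3436, 2932, 2103 and 2881 CPM in Ctr and 3326, 2895, 2431 and 2830 CPM with IFN-γ (0.03 ± 0.07, adjusted p = 0.79). The 95% intervals were -0.23 to 0.14 for Insig1 and -0.12 to 0.18 for Scd2.

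Replicate 4 differed from the other replicates in its IFN-γ response. Within replicates 1, 2 and 3 the median log2 ratio of IFN-γ to Ctr over the 18 sterol enzymes was 0.13, 0.10 and 0.22, with 14, 13 and 15 of 18 enzymes higher. Within replicate 4 it was -0.32, with 2 of 18 higher. The median over all genes was between -0.04 and 0.00 in each replicate. Without IFN-γ replicate 4, 10 genes were called higher and 1 lower, in place of 3 and 1. Leaving out that library moved the median estimate over the sterol enzymes from 0.03 to 0.15, and leaving out Ctr replicate 4 moved it to 0.08. The 7 added calls were Acat2, Fdps, Fdft1, Idi1, Nsdhl, Stard4 and Scd1. The titles of replicates 3 and 4 begin with the same digits, whose meaning is not given, and these 2 replicates went in different directions.

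**Figure D3:**
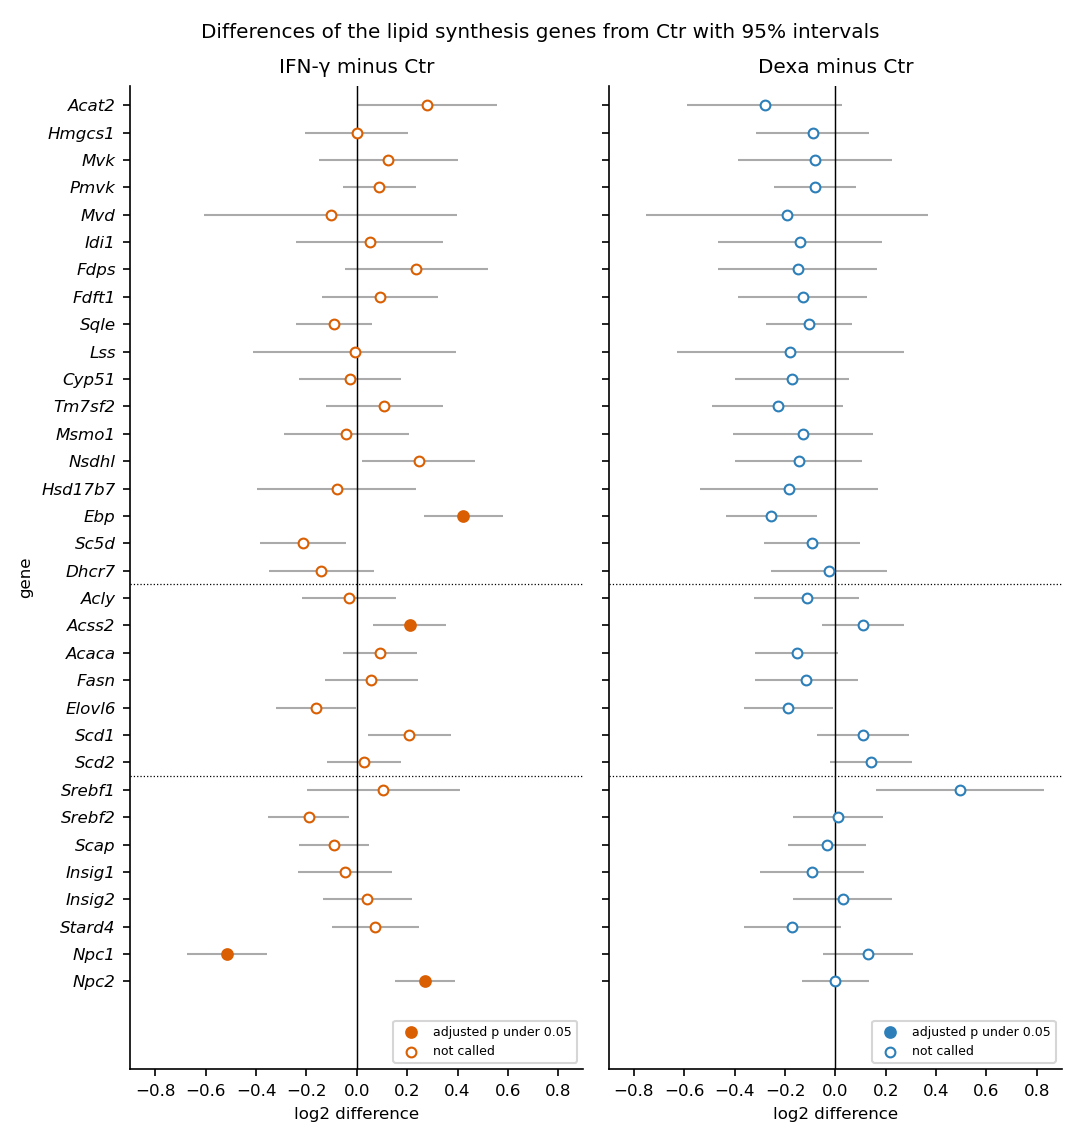
Log2 differences from Ctr of 33 lipid synthesis genes, IFN-γ at left and Dexa at right, as edgeR estimates with 95% intervals; filled points passed an adjusted p of 0.05. Ebp, Acss2 and Npc2 are filled on the right of 0 and Npc1 on the left under IFN-γ, and no point is filled under Dexa, where all 18 sterol enzymes lie left of 0.

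Ch25h had the largest ratio but very few reads. Its counts were 0, 2, 1 and 2 in Ctr, 1, 0 and 1 in Dexa, and 26, 18, 6 and 6 with IFN-γ. Every IFN-γ library was above every other library, where 14.5% of all tested genes had IFN-γ and Ctr values that did not overlap. Ch25h did not reach the minimum of 10 counts in 3 libraries and so was not tested in the main fit. In the fit without that minimum its edgeR adjusted p was 1.8e-05 for IFN-γ against Ctr. Over the groups, 56 counts against 5 gave a ratio of 15.2 per effective library size, with an exact 95% interval of 6.15 to 48.7 that covers counting error only. Without any one library of these 2 groups the ratio was between 11.2 and 20.8. The ratio of Dexa to Ctr was 0.75, with an interval of 0.07 to 4.59. With IFN-γ the median level was 0.37 CPM, so the RNA stayed scarce.

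Dexamethasone changed no gene of the set past the threshold. edgeR called 0 of 33 in either direction, where 1.6% of all genes were called (1.33% higher and 0.272% lower). Unadjusted edgeR p-values were under 0.05 for 3 of the 33 genes, Ebp, Elovl6 and Srebf1, beside 2012 of all 18386 tested genes. The 3 are thus no more than the background would give. DESeq2 called 1 gene with the replicate block, Srebf1, and 0 without it. For all 33 genes the 95% interval lay between -0.75 and 0.83 on the log2 scale, and for 28 of them within 0.5 either way. No member had Dexa values that did not overlap with Ctr, where 4.38% of all genes did.

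The estimates for sterol enzymes in Dexa were small and of one sign. All 18 were below 0, with a median of -0.14 and a range of -0.28 (Acat2) to -0.02 (Dhcr7), beside a median of -0.01 over all genes. In the 3 complete pairs 16 of 18 sterol enzymes were lower in Dexa each time, and 22 of all 33 members were, where 23.4% of all genes were lower each time. The median log2 ratio over the sterol enzymes was -0.30 in replicate 1, -0.16 in replicate 2 and -0.06 in replicate 4. In replicate 3, where 6 of them are listed whole, it was -0.02, with 3 of 6 lower. As these enzymes vary together, their common sign is not 18 separate observations. Without the block 15 of 18 estimates were below 0, with a median of -0.04. Single libraries also moved these values: without Dexa replicate 1 the median was -0.04 with 14 of 18 below 0, without Ctr replicate 4 it was -0.07 with 17 of 18, and without Dexa replicate 4 it was -0.24 with 18 of 18. Acat2, which condenses acetyl-CoA at the head of the pathway, measured 315, 279.8, 181 and 254 CPM in Ctr and 220, 232 and 220 CPM in Dexa replicates 1, 2 and 4 (log2 difference -0.28 ± 0.13, edgeR adjusted p = 0.51). Ebp measured 17.3, 16.9 and 13.8 CPM in Dexa, lower in 3 of 3 pairs (-0.25 ± 0.08, edgeR adjusted p = 0.23).

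Srebf1 had the largest Dexa estimate. It measured 317, 211 and 122 CPM in Dexa replicates 1, 2 and 4, beside 239, 166 and 87.6 CPM in the Ctr libraries of the same replicates. Dexa was higher in 3 of 3 pairs, by 0.41, 0.34 and 0.48 on the log2 scale. In replicate 3, whose Dexa table lists Srebf1 whole, it was higher by 0.84. The fitted difference was 0.50 ± 0.14 with an edgeR adjusted p of 0.21, and 0.12 with Dexa replicate 3 added. DESeq2 with the block gave 0.012. Leaving out Ctr replicate 3 or IFN-γ replicate 3, either of which takes that replicate out of the comparison, gave 0.024 and 0.023. Higher estimates were also seen for Npc1 (0.13 ± 0.08), Scd2 (0.14 ± 0.07) and Acss2 (0.11 ± 0.07), each higher in 3 of 3 pairs and none called, where 20% of all genes were higher each time.

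**Figure D4:**
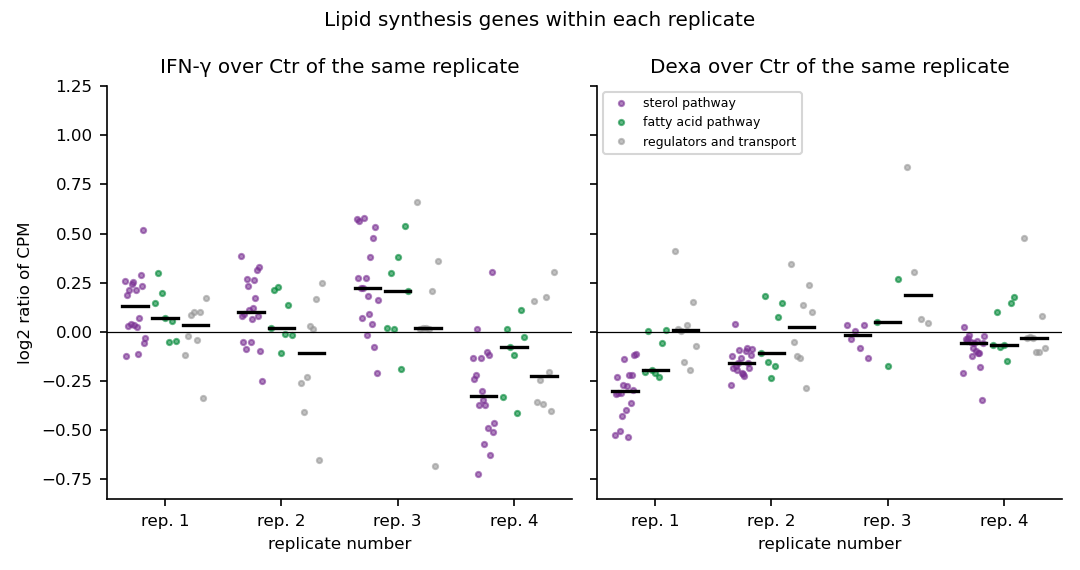
Log2 ratios of CPM within each replicate, IFN-γ over Ctr at left and Dexa over Ctr at right, one point per gene, black bars for the median of each gene group. Dexa replicate 3 is drawn for the 13 genes its table lists whole, scaled over the genes it lists. The sterol enzymes lie mostly above 0 in IFN-γ replicates 1 to 3 and mostly below 0 in replicate 4, and below 0 in Dexa replicates 1, 2 and 4.

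The 2 treatments were then compared with each other. This is the test of whether their effects differ, and 6 of 33 genes were called, where 33.1% of all genes were. Higher with IFN-γ than with Dexa were 5, Ebp, Acat2, Nsdhl, Acaca and Npc2, beside 16.3% of all genes. Lower was 1, Npc1, beside 16.8%. Ebp differed by 0.68 ± 0.08 on the log2 scale (edgeR adjusted p = 7.6e-05), was higher in 3 of 3 pairs and remained called without the block (adjusted p = 0.027). Npc1 differed by -0.64 ± 0.08 (edgeR adjusted p = 8.3e-05), from 151, 201 and 225 CPM in Dexa to 108, 109 and 162 CPM with IFN-γ in replicates 1, 2 and 4. Npc2 differed by 0.27 ± 0.06 (edgeR adjusted p = 0.0051). Acat2 differed by 0.56 ± 0.14 (adjusted p = 0.014), with 377, 366, 270.2 and 232 CPM under IFN-γ, all above the 3 Dexa values except that replicate 4 and Dexa replicate 2 were level at 232 CPM.

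Nsdhl, a C4-demethylation enzyme, differed by 0.39 ± 0.11 (edgeR adjusted p = 0.024). It was at 63.6, 65.5 and 64.5 CPM in Dexa replicates 1, 2 and 4. With IFN-γ it was at 99.85, 86.4, 63.4 and 64.1 CPM. Within pairs IFN-γ was above Dexa in replicates 1 and 2 and about level with it in replicate 4. Replicate 3 has no complete Dexa library and enters the fit through Ctr. There IFN-γ was above Ctr by 0.48 on the log2 scale. Acaca, the acetyl-CoA carboxylase that commits carbon to fatty acids, was at 239, 225 and 257 CPM in Dexa and at 312, 293, 245 and 256 CPM with IFN-γ (0.25 ± 0.08, edgeR adjusted p = 0.026). Its pairs too were higher in replicates 1 and 2 and about level in replicate 4. In replicate 3 IFN-γ was above Ctr by 0.02 on the log2 scale. Without Dexa replicate 1, Dexa replicate 2 or IFN-γ replicate 2 the calls of Acat2, Nsdhl and Acaca were lost, and 2 genes remained higher, while without IFN-γ replicate 4 there were 17. In the fit with Dexa replicate 3 over the genes it lists whole, Srebf1 and Srebf2 were also called lower with IFN-γ than with Dexa (adjusted p = 0.045 and 0.020).

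**Figure D5:**
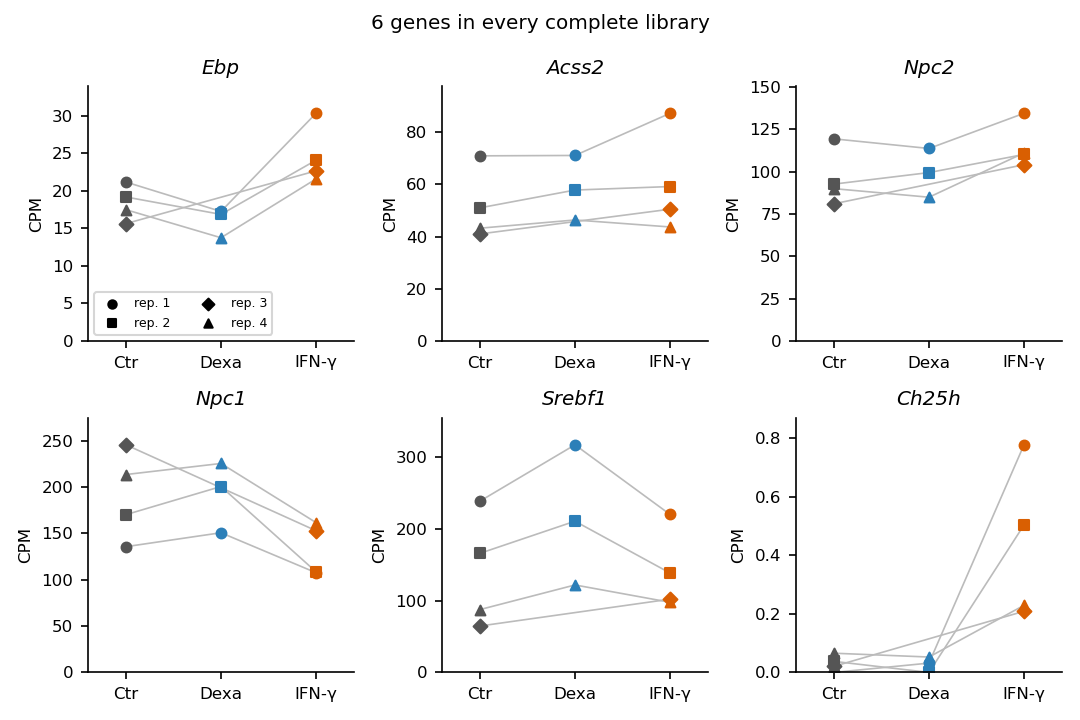
CPM of 6 genes in every complete library, with lines joining libraries of the same replicate number and each axis starting at 0. Ebp and Ch25h are higher in each IFN-γ library than in any other library, Npc2 and Acss2 are higher and Npc1 is lower with IFN-γ than Ctr in each replicate, and Srebf1 is higher in Dexa in replicates 1, 2 and 4.

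Genes next to these pathways were counted in 6 lists. Among 9 genes of SREBP processing and degradation, 1 rose and 1 fell with IFN-γ. Trim21, an interferon-inducible ubiquitin ligase, went from 4.49 ± 0.38 CPM (SD, n = 4) to 105 ± 18.0 CPM, a log2 difference of 4.55 ± 0.11. Mbtps1, the site-1 protease that cleaves SREBPs, fell by 0.24 ± 0.06 on the log2 scale (edgeR adjusted p = 0.0057). Among 9 genes of LXR signalling and sterol efflux, 3 rose and 1 fell. Abca1, the cholesterol efflux pump, rose with both treatments, from 35.0 ± 6.98 CPM in Ctr to 59.0 ± 16.3 CPM with IFN-γ (log2 0.74 ± 0.12, adjusted p = 0.0012) and to 64.7 ± 9.97 CPM in Dexa (0.91 ± 0.13, adjusted p = 0.0093). It was the single gene called under Dexa in any of these 6 neighbouring lists. Without the block the edgeR adjusted p of Abca1 in Dexa was 0.46. Nr1h2, which encodes LXRβ, rose by 0.40 ± 0.08 and the cholesteryl ester hydrolase gene Nceh1 by 0.21 ± 0.06, while the efflux pump gene Abcg4 fell by 0.42 ± 0.09.

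Of 6 tested oxysterol genes, Hsd3b7, an oxysterol and bile acid enzyme, rose by 0.72 ± 0.14 with IFN-γ, and Cyp46a1, the neuronal cholesterol 24-hydroxylase, and the oxysterol-binding protein gene Osbpl2 fell by 0.54 ± 0.14 and 0.24 ± 0.05. Of 11 genes of sterol and isoprenoid side branches, 2 fell: Cyb5r3 and Por, both electron donors to sterol enzymes, by 0.27 ± 0.06 and 0.35 ± 0.09. Of 16 tested genes of fatty acid elongation, desaturation and supply, 3 rose and 3 fell, led by the elongase gene Elovl7, which fell by 0.67 ± 0.08, and by Me1, an NADPH-producing malic enzyme, which rose by 0.38 ± 0.06. Of 11 tested genes of fatty acid oxidation, 1 rose and 4 fell. Acadl, a mitochondrial acyl-CoA dehydrogenase, rose by 0.65 ± 0.09, and Acaa2, a mitochondrial thiolase, and Cpt1a, which carries fatty acids into mitochondria, fell by 0.33 ± 0.08 and 0.32 ± 0.08. The 30.8% called among all genes is the measure for each of these counts. With no filter on low counts the adjusted p of Nceh1 was 0.062, and the other genes named here stayed under 0.05. Without the block only Trim21, Hsd3b7 and Abca1 of the genes named here stayed under an adjusted p of 0.05 with IFN-γ.

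Markers of cell state moved beside these values. With IFN-γ, 6 of 8 OPC markers fell, with C1ql1 at a log2 difference of -2.35 ± 0.16, and 3 of 9 tested oligodendrocyte markers fell, among them Myrf by 1.77 ± 0.31. Of 8 cell cycle genes 5 rose, Top2a by 0.89 ± 0.21, and the 8 summed to 1188 to 3192 CPM in Ctr and 2370.2 to 3335 CPM with IFN-γ. Of 7 astrocyte markers 3 rose and 2 fell, and Gfap went from 0.61 ± 0.46 to 8.58 ± 2.83 CPM. Among all genes 14.8% were called higher and 15.9% lower. With no filter on low counts the calls of Top2a, Mcm2, Mcm5 and Pcna were lost (edgeR adjusted p = 0.066, 0.16, 0.073 and 0.15), which left Tyms among the cell cycle genes, and those of the OPC marker Pdgfra (0.092) and the astrocyte markers Aqp4 (0.078) and Aldh1l1 (0.085) were lost too. Without the block Gfap alone of these OPC, oligodendrocyte, cell cycle and astrocyte calls was kept (adjusted p = 0.0039). Of 4 tested neuron markers 1 rose and 2 fell with IFN-γ, and of 7 tested fibroblast and vascular markers 1 rose and 2 fell. Those that rose were Syt1, from 6.24 to 13.3 CPM, and Lum, from 0.22 to 3.27 CPM. Both were kept without the block (edgeR adjusted p = 0.0043 and 0.024), and those that fell were not. In Dexa, edgeR called 1 OPC marker higher, Cspg4 by 0.65 ± 0.09 on the log2 scale, beside 1.33% of all genes, and no oligodendrocyte, astrocyte or cell cycle marker. It also called 1 of 4 tested neuron markers and 1 of 7 tested fibroblast and vascular markers higher. All 7 astrocyte estimates were above 0 in Dexa, with a median of 0.23, and all 8 cell cycle estimates were below 0, with a median of -0.18. DESeq2 with the block called 2 astrocyte markers in Dexa. Aldoc went from 279 ± 111 CPM in Ctr to 584 ± 128 CPM, with groups that did not overlap (DESeq2 adjusted p = 2.8e-07, edgeR 0.085), and Gfap from 0.61 ± 0.46 to 2.28 ± 1.81 CPM (DESeq2 adjusted p = 0.0012, edgeR 0.20). The part of these changes in the differences of the lipid synthesis genes was not tested.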

How the data were processed

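Total RNA was depleted of ribosomal RNA, made into strand-specific libraries and sequenced. The authors quantified transcripts with Salmon (0.8.2, from the submitters' processing notes), and the deposited tables give an estimated count, an effective length and a TPM value per transcript. Transcripts matched GENCODE M21 (GRCm38), with 0 unmatched. The authors' DESeq2 fold changes and p-values were not used. Estimated counts were summed per gene and rounded, and TPM was summed for levels in Ctr. A gene was tested when 3 or more of the 11 libraries held 10 or more counts, which left 18386. The table of Dexa replicate 3 ended early and entered only a separate fit over the 19130 genes it lists whole. The main test was edgeR's quasi-likelihood test (4.0.16, R 4.3.3) with TMM factors, group and replicate number. The study names DESeq2, which was run as an alternative (1.42.0). edgeR was put first because it made fewer false calls on simulated counts. Those counts were drawn from edgeR's own fitted means and dispersions, so this ground may lean towards edgeR. Deviations from group means correlated at 0.498 to 0.865 between libraries of the same number and at -0.8 to 0.689 otherwise. The ranges overlap, since Ctr replicate 3 correlated at 0.689 with Dexa replicate 4 and at 0.551 with IFN-γ replicate 4. Replicates 3 and 4 are thus not clearly separated by these values, and the block follows the replicate numbers as given. The test between replicate numbers and the Ch25h ratio were added after the data were seen. Per-library values were given for each called gene and for 9 fixed genes, and neighbouring and marker lists by counts and at most 4 called genes. Some genes of these lists are not reported here. The genes and lists were chosen with earlier results of these data known. Replicates came from different litters per the labels, and intervals on counts cover counting error only.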

Additional observations from a re-analysis of the deposited data

Results flagged for a closer look

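Each gene of the set was examined for a library far from the others of its group, in Ctr and in IFN-γ, where there are 4 libraries each. Of 68 groups, 2 held such a library, and chance alone would mark about 1 in 20. Fdft1, the squalene synthase gene, was at 134 CPM in Ctr replicate 3 and at 194 to 202 CPM in the other controls. Lss, the lanosterol synthase gene, was at 169.5 CPM in the same library and at 266 to 274 CPM in the other controls. Both are low in the library that was lowest for all 18 sterol enzymes.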

How the results depend on the processing

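Counts of called lipid synthesis genes depended on the replicate block. Without the block, edgeR called 0 higher and 0 lower in IFN-γ against Ctr (3 and 1 with it), and 1 higher and 0 lower in IFN-γ against Dexa (5 and 1). Over all genes it called 1553, 25 and 1584 for IFN-γ against Ctr, Dexa against Ctr and IFN-γ against Dexa, in place of 5658, 294 and 6092. DESeq2 with the block called 5 higher in IFN-γ against Ctr, 1 higher in Dexa against Ctr and 2 lower in IFN-γ against Dexa, with 456 genes in all for Dexa. DESeq2 without the block called 1 higher and 0 lower in both IFN-γ comparisons, and 2328, 100 and 2372 genes in all. With no filter on low counts there were 5 higher (Scd1 and Ch25h added) and 3 lower in IFN-γ against Ctr, and 466 genes in all for Dexa against Ctr. Upper-quartile factors gave 4 lower in IFN-γ against Ctr and 3 lower in IFN-γ against Dexa, and the effective length offset gave 2 lower in each. With Dexa replicate 3 added over the genes it lists whole, 2 were called lower in IFN-γ against Dexa, in place of 0. The cause was not tested. No scaling moved the median of all genes by more than 0.1 on the log2 scale.

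Leaving out 1 library at a time, IFN-γ against Ctr gave 2 to 10 higher and 1 to 3 lower, Dexa against Ctr gave 0 to 1 higher and 0 lower, and IFN-γ against Dexa gave 2 to 17 higher and 1 to 3 lower. Over all genes Dexa against Ctr ranged from 100 (without Dexa replicate 2) to 439 (without IFN-γ replicate 1). The highest member counts, 10 and 17, both came without IFN-γ replicate 4. No called gene changed sign under any alternative, and 119 values that were not called did.

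Precision is limited by 3 complete Dexa libraries and the spread between litters, and for Ch25h by counts of 26 or fewer per library. On the TPM scale, which takes no account of composition, the sterol enzymes summed to 1151, 1135, 692 and 946 in Ctr and 1471, 1502, 802 and 944 with IFN-γ. In CPM the sums were 4431, 3847, 2413 and 3632 in Ctr and 4607, 4169, 2870 and 2939 with IFN-γ, so the gap between groups depends on the scale.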
